A study of Homo sapiens with 6 samples.

Results

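Exonic SF3B4 peaks are the stretches of RNA bound by the splicing factor SF3B4 whose centre fell in an exon rather than in an intron. A peak was counted here when its midpoint lay in an exon of a basic transcript (the representative transcript set of GENCODE release 29) of the same-strand gene that held it, and was not in the last 60 nt of intron before the 3' splice site closest to it, where an intron meets the next exon. U2 small nuclear RNA genes were left out. These rules kept 258 of the 3660 SF3B4 peaks (7.05%, 95% Wilson interval 6.26 to 7.92%), in 225 genes. Of the rest, 2830 were centred 1 to 60 nt upstream of a 3' splice site and are called acceptor peaks below, 550 lay elsewhere in introns, and 22 belonged to U2 genes.

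The study used enhanced crosslinking and immunoprecipitation (eCLIP), which recovers RNA fragments crosslinked to a protein and compares them with an input library, in HEK293T, a line of human embryonic kidney origin. There were 6 libraries, 2 for each of 3 groups: SF3B4 recovered with an antibody against SF3B4, a G-quadruplex-directed biotin ligase (G4PID) recovered through its HA tag, and input. The labels describe plasmid transfection and labelling with 500 µM biotin for 30 min in text common to all samples, so it is not settled whether the SF3B4 and input cells were also transfected. Separate cultures are not mentioned for the libraries within a group. The authors deposited 1 peak list for each antibody and no value for each library, so there is no spread between replicates, read depth is unknown, and the p-values below compare peaks with peaks. Intervals cover counting error only. Both lists together held 3930 peaks.

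SF3B4 is a subunit of SF3b, the part of the U2 small nuclear ribonucleoprotein that grips the branch point of an intron. The branch point adenosine lies a short way upstream of the 3' splice site, followed by a pyrimidine-rich tract and the AG that ends the intron. SF3B4 contacts the RNA around the branch point, so its crosslinks are known from the ends of introns, and a peak is an interval of many nucleotides that can extend across the junction into the exon.

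The sequences that follow show the RNA at the junction in peaks that crossed it. Each is 5' to 3' on the sense strand and holds the last 25 intron bases in lower case and the first 5 exon bases in capitals. They come from GENCODE release 29 transcripts (hg38) that cover the intron. The SENP6 stretch is at chr6:75647706-75647735 (+), SFSWAP at chr12:131714046-131714075 (+), SRSF11 at chr1:70232243-70232272 (+), CC2D1A at chr19:13920532-13920561 (+) and CHFR at chr12:132847126-132847155 (-).
SENP6: aaaactacataaatttcttttttagGAAAG
SFSWAP: attgaccagcttgttcacattacagATATG
SRSF11: ctaatgcaaggatgtttctctgcagGAGTT
CC2D1A: taacatcctctctcttcctctacagCAGAA
CHFR: attcctctctttttttgcgtcacagAATTA
In all 5, AG closes the intron.

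Some crossing peaks, that of CC2D1A among them, carried CTNAC, a loose form of the branch-point consensus, in their intron part. In the examples below, from other genes, it is in capitals. The MINK1 stretch is at chr17:4890451-4890480 (+), ARSA at chr22:50626766-50626795 (-), SGSM3 at chr22:40406982-40407011 (+) and ZSWIM8 at chr10:73794508-73794537 (+).
MINK1: ggcatgcctgctCTAACtcccagggccaca
ARSA: ccctacccagtgCTAACtccagtctttgcc
SGSM3: gccaggaccaccCTGACccactcctcttgg
ZSWIM8: ctgtctgcctgaCTTACcccaacttttata

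A smaller set of exonic peaks lay just upstream of 3' splice sites that only transcripts outside the basic set use. The last 28 bases before such a junction and the 2 after it are given for 6 of the genes, chosen after their values were seen, with the final intron AG in capitals. The HOXA3 stretch is at chr7:27140185-27140214 (-), HNRNPA1 at chr12:54286925-54286954 (+), the pair of HNRNPA2B1 at chr7:26191127-26191156 and chr7:26190459-26190488 (-), SRSF11 at chr1:70231831-70231860 (+), SRSF2 at chr17:76734561-76734590 (-) and the first of RSRP1 at chr1:25244497-25244526 (-).
HOXA3: cgctggactccatttgactcttttgcAGgc
HNRNPA1: actttacaacctcttttgccttttgcAGga
HNRNPA2B1 first: atcatttttttccctgccggaattttAGca
HNRNPA2B1 second: ttcagatactttttttttcctttggcAGga
SRSF11: tatcttgatttttctgtgtgctttatAGtg
SRSF2: tcttctcttatgtatttttgtgcactAGgc
RSRP1: gtttatctgctctatttctgtcttatAGaa

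Another kind of exonic peak lay on copies of U6, the small nuclear RNA that pairs with U2 in the spliceosome and ends in a run of uridines (T here). The sequences are shown because the peaks on the first 3 copies covered only this 3' end, at chr10:105534737-105534765 (+), chr5:32309744-32309768 (+) and chr7:121194948-121194968 (-). The fourth is the matching end of a copy covered whole, at chr3:181231814-181231843 (+). Capitals are not used here.
RNU6-463P: cacgaattcgtgaagcgttccatattttt
RNU6-378P: aattcgtgaagcgtttcatattttt
RNU6-517P: cacgaagcgttccatattttt
RNU6-4P: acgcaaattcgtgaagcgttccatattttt

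Most exonic peaks lay at the start of an exon. Counting the first exon base as 0, 162 of 258 midpoints (62.8%, 56.7 to 68.5%) were 0 to 60 nt downstream of a 3' splice site of the gene, and these are called near-acceptor peaks. Of all exon positions of the same genes, 19% lay in that stretch. For 109 of the 162 peaks the midpoint was within the first 10 bases of the exon, a stretch that holds 3.23% of exon positions. A further 31 midpoints were at 10 to 19 nt, 16 at 20 to 29 nt and 6 at 30 to 60 nt. Of the rest, 4 were centred 0 to 60 nt upstream of a 5' splice site and 77 lay deeper in exons. A further 15 were in genes with no basic 3' splice site. These 96 are called the other exonic peaks. Nearness to a 3' splice site was decided first, so the 4 leave out near-acceptor peaks in short exons that also lay near a 5' splice site. The share of exon positions near a 5' splice site was not counted.

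The near-acceptor peaks reached back into the intron. In 154 of 162 (95.1%, 90.6 to 97.5%) the 5' end of the peak was in the intron, with a median at 49 nt upstream of the exon (-49, quartiles -55 and -35.5). The 3' end had a median of 59 nt past the first exon base, so that the junction was close to the middle of the peak. A median of 54.9% of each crossing peak lay downstream of the junction. A midpoint in the exon keeps this share at 50% or more by the rule. In short exons it also counts bases past the end of the exon, so it is not the exonic share. In TONSL the exon was 29 nt long and the peak ended at 64. Acceptor peaks began at a median of -59 (quartiles -73 and -52) and ended at a median of 3, and 1485 of 2830 (52.5%) also reached into the exon. Their median midpoint was -30, against 5.5 for the near-acceptor peaks. The 5' end lay 10 to 60 nt upstream in 129 of 162 near-acceptor peaks (79.6%) and in 1528 of 2830 acceptor peaks (54.0%). A peak that begins in this stretch can be centred in the exon only if it is wide, so neither the 5' end nor the width is independent of the rule, and both are described without a test. With the 5' end in place of the midpoint, 200 peaks were exonic and 11% of them near an acceptor.

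**Figure D1:**
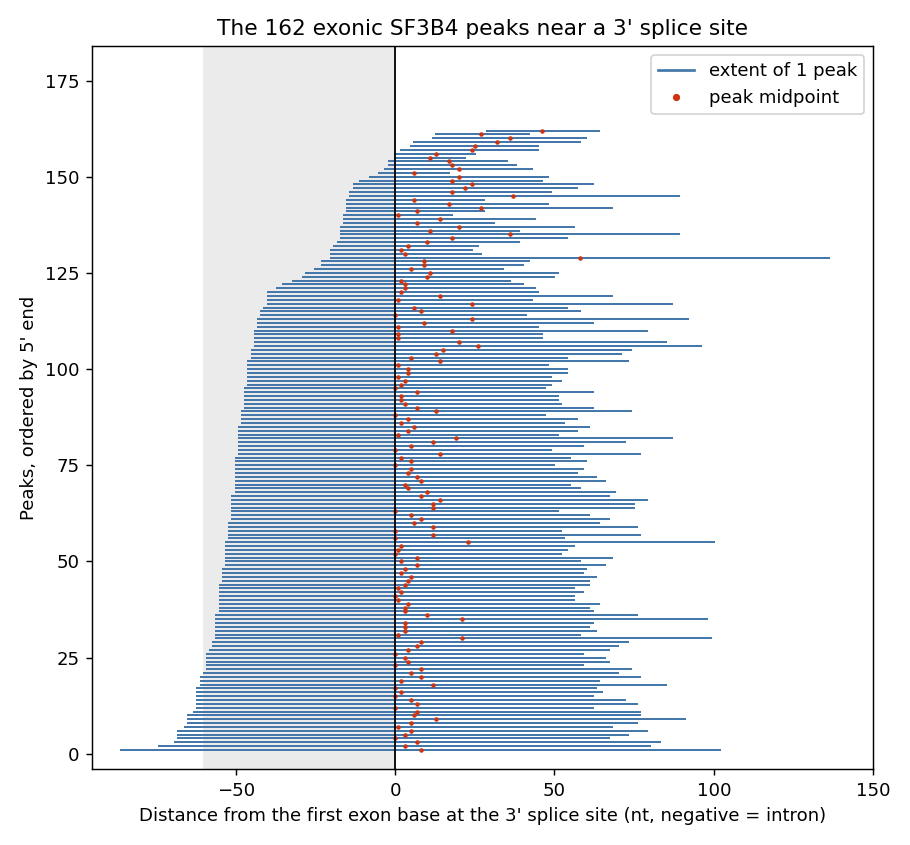
Extent (blue line) and midpoint (red point) of each of the 162 near-acceptor peaks, by distance in nt from the first exon base, with negative values in the intron. The grey band marks the 60 nt upstream of the junction, where 154 of the peaks begin or pass, and the midpoints sit at a median of 5.5 nt into the exon.

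**Figure D2:**
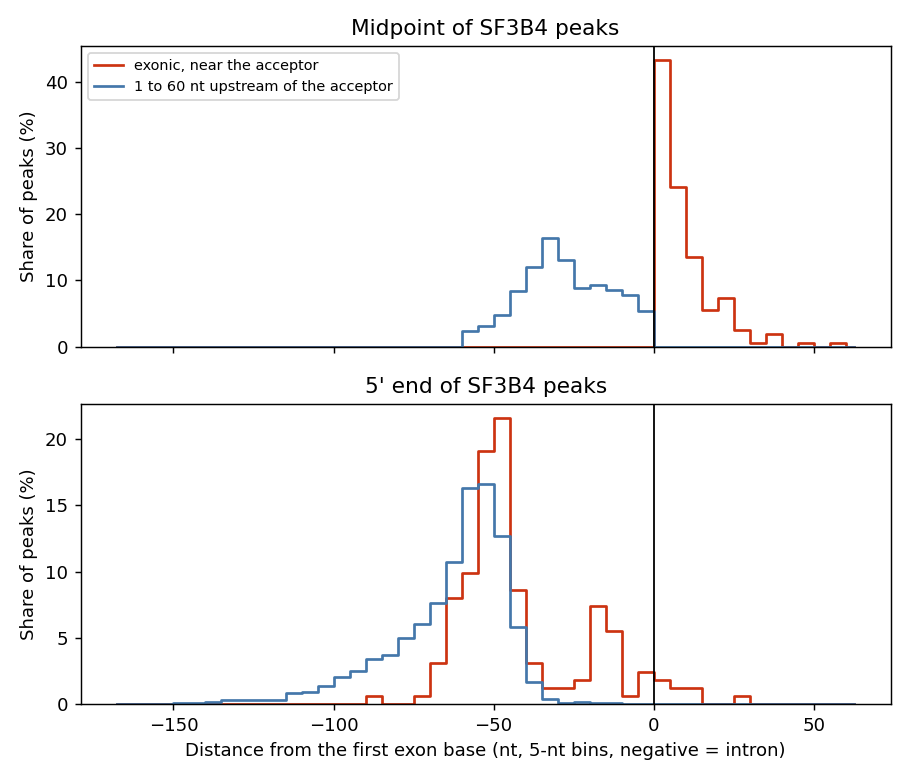
Share of peaks (%) by distance in 5-nt bins of the midpoint (upper panel) and of the 5' end (lower panel) from the first exon base, for near-acceptor (red) and acceptor peaks (blue). The midpoints are separate by the rule, while the 5' ends overlap, with medians at -49 and -59.

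The highest near-acceptor peak by the authors' log2 fold over input was in SENP6, which encodes a SUMO protease. It covered chr6:75647680-75647798 (119 nt, fold 5.74) from 51 nt before to 67 nt into exon 7 of 24. ACAD11, which encodes an acyl-CoA dehydrogenase, had a peak of fold 5.57 at chr3:132578807-132578926, from -45 to 74 around the start of exon 15 of 20. In SFSWAP, which encodes a regulator of splicing, the peak at chr12:131714018-131714129 had a fold of 5.40 and ran from -53 to 58 at exon 2 of 18. All 3 peaks had similar extents, and SENP6 and ACAD11 had no acceptor peak elsewhere in the gene. Among 5' untranslated exons the highest were NKTR, a cyclophilin-related gene (5.18, from -41 to 54), and ZBTB4, which encodes a zinc finger protein (5.09, from -54 to 63). FBXL6, an F-box gene with 3 acceptor peaks, had a fold of 5.12. MAT2A, which encodes the enzyme that makes S-adenosylmethionine, had 1 of the 5 exonic peaks at the maximum −log10 p of 400, with a fold of 4.19 and a midpoint 20 nt into its last exon.

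Only 8 near-acceptor peaks began at or after the first exon base. They were narrow and included PPOX, which encodes an enzyme of haem synthesis (fold 4.88, from 29 to 64 nt into exon 10), the ribosomal protein gene RPS3A (4.79, from 13 to 42 nt), the helicase gene DDX41 (4.69, from 5 to 45 nt) and NFKBID (4.58, from 2 to 45 nt). A pair of them were in GAS5, at exons 5 and 12.

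By exon class, 140 of 162 near-acceptor peaks (86.4%, 80.3 to 90.9%) were centred in coding sequence, 12 in 5' untranslated exons, 2 in 3' untranslated exons and 8 in noncoding RNA. Their exon was internal in 144 cases and the last in 18, with a median length of 121 nt. The other exonic peaks were spread otherwise, described here with no test: 10 of 96 (10.4%, 5.76 to 18.1%) were coding, 21 in 5' and 38 (39.6%) in 3' untranslated regions and 27 (28.1%) in noncoding RNA. Their exon was the first in 27, the last in 39, internal in 14 and the only exon in 16, with a median length of 1200.5 nt, and 87 of the 96 lay wholly in an exon. Taken over all 258 peaks, coding sequence held 58.1% (46.3% of exon positions of these genes), 5' untranslated regions 12.8% (7.83%), 3' untranslated regions 15.5% (37.9%) and noncoding exons 13.6% (7.97%). The class and the distance from an acceptor go together in the annotation, and their parts were not separated.

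**Figure D3:**
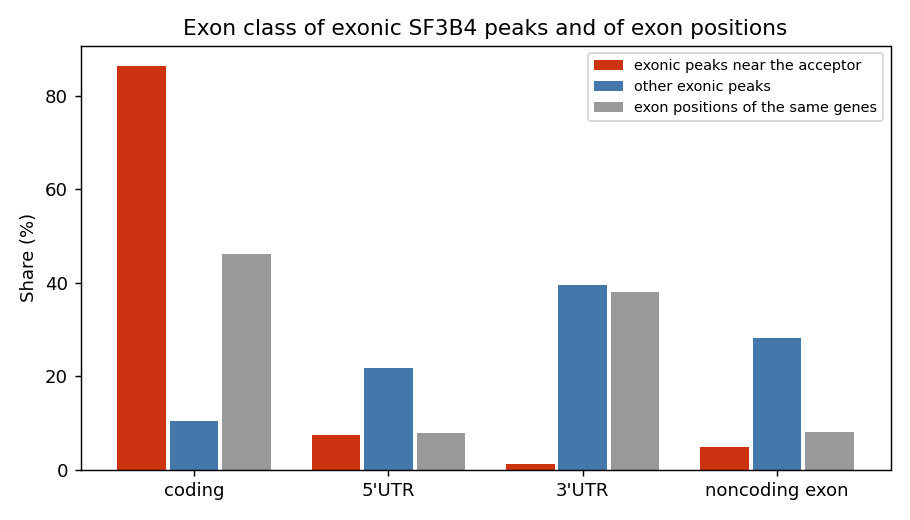
Share (%) of the 162 near-acceptor peaks (red), the 96 other exonic peaks (blue) and the exon positions of the same genes (grey) in each exon class. Coding sequence held 86.4% of near-acceptor and 10.4% of the other peaks, and 3' untranslated regions 39.6% of the other peaks.

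The near-acceptor peaks followed introns with a median length of 871.5 nt, and acceptor peaks introns with a median of 555.5 nt. Introns under 200 nt preceded 24.7% of the first and 24.3% of the second (odds ratio 1.02, two-sided Fisher's exact test, p = 0.925 adjusted over 4 comparisons added after the data were seen). The gene also carried an acceptor peak for 53.1% of near-acceptor and 44.8% of other exonic peaks (odds ratio 1.39, exact test, adjusted p = 0.328). However, 15 of the other peaks were in genes with no basic 3' splice site, which cannot hold an acceptor peak. The rule thus sets at least part of this difference, and nothing is concluded from it. In another basic transcript of the gene the midpoint was intronic for 34 near-acceptor peaks (21.0%) and for 37 of the other peaks (38.5%), an odds ratio of 0.424 with an adjusted p of 0.00745 by the exact test.

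Width and fold were then compared between exonic and acceptor peaks by Fisher's exact test, two-sided, with p adjusted by Benjamini-Hochberg over 6 comparisons. Exonic peaks had a median width of 101 nt (21 to 284), and 191 of 258 (74.0%) were wider than the list median of 71 nt, against 47.6% of acceptor peaks and 49.7% of the whole list. The midpoint rule sets part of this difference, so its p is not given. Their median log2 fold was 3.74 and the highest 6.18. The fold was above the list median of 3.93 in 106 of 258 (41.1%), against 1393 of 2830 acceptor peaks (49.2%) and 49.2% of the whole list (odds ratio 0.719, exact test, adjusted p = 0.0200). Among peaks wider than 71 nt, an alternative chosen after seeing the data, the shares were 37.7% and 37.2% (odds ratio 1.02, exact test, adjusted p = 1), so the direction turned and width moved with the result. The call was also lost with the 5' end in place of the midpoint (0.871, exact test, adjusted p = 0.555). The −log10 p was above the list median in 57.0% of exonic peaks, 48.5% of acceptor peaks and 49.8% of the list (odds ratio 1.41, exact test, adjusted p = 0.0185), and this call was lost without the 11 peaks on small RNA genes (1.32, adjusted p = 0.0593) and among wide peaks (1.28, adjusted p = 0.299). For 210 exonic peaks (81.4%) another peak of the list had the same pair of fold and −log10 p values, so the values do not rank peaks finely.

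Within the exonic set, 71 of 162 near-acceptor peaks (43.8%) and 55 of 96 others (57.3%) were above the exonic median fold (odds ratio 0.582, exact test, adjusted p = 0.0480). The call was lost in 7 of 9 alternatives, with adjusted p from 0.0801 to 0.892 by the exact test. By class, the median fold was 3.64 in coding, 3.93 in 5' untranslated, 3.73 in 3' untranslated and 4.25 in noncoding exons. Of the 100 highest folds of the list, 5 were exonic peaks, near their share of 7.05% of the whole list, and the first was at rank 30.

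**Figure D4:**
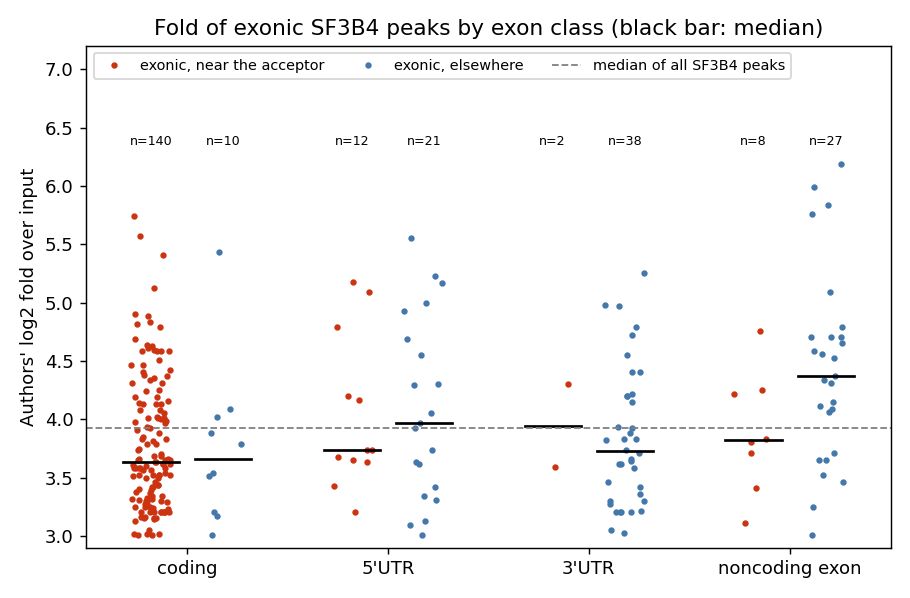
Authors' log2 fold over input of each exonic SF3B4 peak by exon class, for near-acceptor (red) and other peaks (blue), with medians as black bars and the list median as a dashed line at 3.93. The other noncoding peaks have the highest median, 4.38, and the 140 coding near-acceptor peaks have a median of 3.64.

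Several of the peaks deep in untranslated regions lay upstream of a 3' splice site that the basic set does not hold. Of the 96 other peaks, 16 (16.7%, 10.5 to 25.4%), in 14 genes, were centred 1 to 60 nt upstream of an acceptor used by another GENCODE transcript, and 0.709% of the exon positions of the same genes away from acceptors lay in such a stretch. There were 11 in 3' untranslated regions, of 38 peaks there (28.9%), 4 in 5' untranslated regions, 1 in noncoding RNA and 0 in coding sequence. All 15 of these junctions with known sequence followed AG, but they are ends of annotated introns, so the AG is no sign of binding. For 9 peaks a transcript annotated as a target of nonsense-mediated decay used the junction, for 6 a processed transcript, for 4 a protein-coding and for 3 a retained-intron transcript, and 1 peak could count in more than 1 type.

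HNRNPA2B1, an hnRNP gene, had 2 peaks in its last exon, with folds of 4.15 at chr7:26191097-26191188 and 3.42 at chr7:26190419-26190513, centred 14 and 6 nt before the junctions printed above. HNRNPA1 had 1, fold 4.40, at chr12:54286868-54287010 and 14 nt before its junction. SRSF2, an SR protein gene, had 1 of fold 3.22, 38 nt before a junction used by decay-annotated transcripts. RSRP1, which encodes an arginine and serine-rich protein, had folds of 4.73 and 4.55, centred 8 and 40 nt upstream of their junctions. SRSF11 had a peak of fold 3.64 in its long first exon, 27 nt before such a junction, a narrow neighbour of fold 5.00, and a near-acceptor peak of fold 4.63 from -51 to 61 at exon 4. HOXA3, a homeobox gene, had a fold of 4.55 at 7 nt before its junction. The remaining genes were MAPK12 (4.20), CCDC57 (4.05), DAP3 (3.84), AFG3L1P (3.71), GPR135 (3.62), WDR26 (3.47), AKAP17A (3.20) and RBBP6 (3.01). Midpoints of both RSRP1 and both HNRNPA2B1 peaks, and of SRSF11 (3.64), MAPK12, CCDC57, AFG3L1P and AKAP17A, were intronic in another basic transcript. A further 10 other peaks were 61 to 120 nt upstream of a basic acceptor, just past the limit of the rule.

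Peaks in 3' untranslated regions with no such junction included JPT1 (fold 5.26, 23 nt wide, −log10 p 70.2), the myosin light chain gene MYL6 (4.98, 187 nt wide, at -113 from a basic acceptor) and DZIP1, a gene of ciliogenesis (4.97). In 5' untranslated first exons, beside WDR74 and SRSF11, the highest folds were in COQ8A (5.55 and 3.93), a gene of coenzyme Q synthesis, AMY2B (5.17), an amylase gene, and MTRF1 (4.93), which encodes a mitochondrial release factor. Among the 10 coding peaks outside the near-acceptor set, INPP5E, which encodes a phosphoinositide phosphatase of cilia, had the highest fold (5.44, midpoint 66 nt into the exon). It was followed by TAF6 (4.09) and FASTK (4.02, at 284 nt the widest peak of the list). The TAF6 peak was centred 84 nt upstream of a basic acceptor (-84), and that of FASTK crossed one, from -57 to 226. LENG8 had 5 exonic peaks, more than any other gene as peaks were assigned here. Their folds ran from 3.20 to 4.01 over chr19:54460505-54461345, and 4 were in 3' untranslated sequence. Among the 18 genes with 2 exonic peaks, COQ8A, PHKG2, a phosphorylase kinase gene (4.79 and 4.31, both near-acceptor), RSRP1 and NSD2, a histone methyltransferase gene (4.69 and 3.79), had the highest folds. Several of these midpoints were intronic in another basic transcript of the gene. They were those of MYL6, TAF6, FASTK, the PHKG2 peak of 4.79, and all peaks of LENG8, RSRP1 and NSD2.

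Genes of noncoding type held 35 of 258 exonic peaks (13.6%), 99 of 2830 acceptor peaks (3.50%) and 4.92% of the whole list (odds ratio 4.33, exact test, adjusted p = 7.71e-10). Of the 35, 14 were in genes with no basic 3' splice site, which cannot hold an acceptor peak. Without the 15 peaks in all such genes, an alternative added after seeing the data, the shares were 8.64% and 3.50% (odds ratio 2.61, exact test, adjusted p = 0.00116). The small nucleolar RNA host gene GAS5 had 3, all near-acceptor: fold 4.75 at chr1:173865828-173865947, from -53 to 66 around the 38-nt exon 6, and narrow peaks of 3.80 and 3.41, beside 5 acceptor peaks. Near-acceptor peaks were also in the host genes SNHG1 (4.25), ZFAS1 (4.22, not in the list of hosts used below) and SNHG15 (3.11), while the peak of EPB41L4A-AS1 (5.09) was centred 434 nt into its last exon. MIR17HG, the host RNA of the miR-17 to miR-92 cluster, had 4 peaks with folds of 4.71, 4.71, 4.15 and 4.09 in its last exon, and the single-exon lincRNA AL133325.3 had 3, of 5.76, 4.34 and 3.65. All 4 MIR17HG midpoints were intronic in another basic transcript.

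There were 11 exonic peaks (4.26%, 2.40 to 7.47%) on annotated small RNA genes, and some had the highest values of the set. RNU6-463P had the highest fold of any exonic peak, 6.18, over nt 79 to 107 of the 107-nt copy. RNU6-378P had 5.84 over nt 83 to 107 and RNU6-517P 4.65 over nt 90 to 110, and RNU6-4P had 4.38 over its whole length with the maximum −log10 p of 400. The first 3 thus covered only the 3' end. The annotation holds 1276 genes named RNU6-. The exact sequences of the 3 short peaks were each found in 1 of them and that of RNU6-4P in 7. The printed 3' ends of the copies are nearly the same, and only whole-peak matches were counted. Reads of RNU6-4P could therefore come from other copies. Whether reads of the 3 short peaks came from other copies was not tested. The handling of multiply mapping reads is not stated in the labels. WDR74, a gene of ribosome biogenesis, had 3 peaks in its first exon with folds of 5.22, 4.30 and 4.29, all at −log10 p 400, which lay on RNU2-2P, a U2 gene on the same strand, at nt 46 to 86, 128 to 187 and 93 to 123 of 191. These 3 passed the rule because the protein-coding gene was taken first, and U2 and WDR74 RNA cannot be told apart there. The microRNA genes were MIR6859-4 (5.99), MIR19A (3.53, and a MIR17HG peak of 4.15 that overlaps it) and MIR3618, at the edge of a DGCR8 near-acceptor peak of 4.17. The MIR19A peak also lay in the last exon of MIR17HG, between peaks counted for that gene, and was assigned to the shorter gene. The MIR6859-4 peak ran from nt 1 to 133, past the end of the 68-nt gene. The annotation holds 4 genes named MIR6859-, and whether reads were shared among them was not tested.

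Exonic peaks were in 197 of 19969 protein-coding genes (0.987%), and acceptor peaks in 1522 (7.62%). Of 17 SR protein genes, 3 had an exonic peak (SRSF11, SRSF5 and SRSF2) and 9 an acceptor peak. The SRSF5 peak, at the start of exon 7, had a fold of 3.98 and a −log10 p of 68.9. Of 24 hnRNP genes, 2 had an exonic peak (HNRNPA1 and HNRNPA2B1) and 16 an acceptor peak. Of 79 cytosolic ribosomal protein genes, 5 had an exonic peak and 64 an acceptor peak. The 5 were RPS3A (4.79), RPS18 (4.20), RPS15 (4.14), RPS3 (3.66) and RPS21 (3.65), all of the small subunit, and the first 4 were near-acceptor. Translation factors had 1 of 26 (EIF5, 3.62, in its 3' untranslated region) and 12 acceptor genes, and 17 nuclear or small nucleolar RNA host noncoding genes had 4 (EPB41L4A-AS1, 5.09, with GAS5, SNHG1 and SNHG15) and 9. Of all 38811 genes of noncoding type, 0.0721% had an exonic and 0.165% an acceptor peak. No exonic peak was in the 20 genes of SF3b, SF3a and U2 partners, the 24 of other small nuclear ribonucleoproteins, 26 chaperones or 19 tubulin, actin and glycolysis genes, in which 9, 7, 14 and 12 genes had an acceptor peak. Histones (0 of 28, 3 with an acceptor peak), 24 single-exon coding genes (0 and 0) and 28 genes of other tissues (0 and 0) had none. The list holds only peaks past the authors' thresholds, so a gene without one is not shown to be unbound.

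Sequence motifs were searched in windows of 71 nt around the midpoint, on both strands. Sequence was known for 169 of the 258 windows, 82 near-acceptor and 87 other, because an intron could be read only where a transcript covers it. CTNAC was in 51 windows on the sense strand (30.2%, 23.8 to 37.5%), against 18.9% of all 857590 exonic windows of the same genes, and on the antisense strand in 13.6% against 20.0%. It was in 35.4% of near-acceptor and 25.3% of other windows. A run of at least 8 pyrimidines was in 84 (49.7%, 42.3 to 57.2%) against 24.3%, with 54.9% near acceptors and 44.8% elsewhere, and in 20.1% against 26.3% on the antisense strand. The full consensus TACTAAC was in 0 windows (0.0691% of all). The intron-end forms TTTCAG and CCCCAG were in 4.73% (2.91% of all) and 5.33% (4.66%). All exonic windows are the comparison here, while near-acceptor windows also hold intron, so the shares differ in what they cover.

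In the 72 crossing peaks with known sequence, CTNAC was on the intron side of the junction in 24 and on the exon side in 13. The intron side held fewer bases (3390 against 4620). These 72 are only the peaks whose intron part a transcript covers. The A of the intronic CTNAC nearest the exon was at a median of 21 nt upstream (-21, quartiles -23.25 and -18). A pyrimidine run was on the intron side in 39 and on the exon side in 15. The same counts were not made for acceptor peaks or for intron ends without a peak. Whether these shares are particular to crossing peaks therefore cannot be read from them.

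Runs of at least 4 G, relevant to the ligase arm of the study, were in 22.5% of windows against 23% of all, and in 33.1% against 24.7% on the antisense strand. A quadruplex motif, meaning 4 tracts of 3 or more G that 1 to 7 other bases separate, was in 1 window (0.592%) against 0.808%, and on the antisense strand in 7 (4.14%) against 1.06%. Searched over the peaks as deposited, which are often wider than 71 nt, it was in 4 of 169 (2.37%) and on the antisense strand in 9 (5.33%). No exonic SF3B4 peak overlapped a G4PID peak on the same strand (0 of 258, which allows a share of up to 1.16%, the limit of 3 counts), and 0 were within 100 nt of one. In the whole list 1 of 3660 peaks did, so the count of 0 is not particular to exonic peaks. Genes with a G4PID peak held 2 exonic peaks (0.775%), 43 acceptor peaks (1.52%) and 1.61% of the list (odds ratio 0.506, exact test, adjusted p = 0.582). The 2 were BRD9, a bromodomain gene (3.47, near-acceptor), and SQSTM1, which encodes an autophagy receptor (3.02, 3' untranslated region), at 22646 and 14996 nt from the G4PID peak.

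At the limit of the rule, just inside, midpoints 61, 62 and 65 nt upstream of an acceptor (-61, -62 and -65) were kept in NSD2 (3.79), PABPN1 (3.10) and IMMP2L (3.34). Just outside, midpoints at -60, -57 and -56 left out GTF2IP20 (3.62), DMPK (3.75) and RPL37A (5.02), although each also lay in an exon of another transcript. At the junction itself, 16 exonic peaks were centred on the first exon base (median fold 3.38, width 106 nt) and 21 acceptor peaks on the last intron base (3.79, 108 nt). Over all acceptor peaks, 142 (5.02%) were also exonic in another basic transcript.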

How the data were processed

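RNA bound by SF3B4 and G4PID was measured by eCLIP with input libraries in HEK293T cells. The submitters' processing notes name STAR 2.7.0d and cutadapt 3.4, with builds hg19 and hg38. For the peak caller, its thresholds, multiply mapping reads and the joining of libraries, nothing is given in the sources used. Each antibody has 1 deposited list of peaks with strand and a pair of unnamed values. The authors' first value was taken to be a −log10 p-value and the authors' second a log2 fold over input. Column order usual for eCLIP and the ranges (all above 5 with a maximum of 400, and all above 3) are the grounds for this. Fold was compared only between peaks of the SF3B4 list. Coordinates are hg38.

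Each peak was placed by its midpoint on GENCODE release 29, as the rule above states. No genome sequence was used, and sequence was read from the transcripts. Where transcripts gave different classes, coding came before untranslated and noncoding exon. Comparisons used two-sided Fisher's exact tests with Benjamini-Hochberg adjustment and a threshold of 0.05, and Wilson intervals at 95%. The 5 comparisons with acceptor peaks and 1 within the exonic set formed 1 family, and 4 were added later. The placement and the tests were run on simulated data first. Members and gene lists were chosen with earlier results of these data known. Named genes were the 20 with the highest fold, the 10 with the most exonic peaks, up to 4 per gene list and, in part, the first 5 per exon and position class, all by fold. Genes named outside this rule, such as RPS21, ZFAS1, the peaks that begin in the exon, MAT2A, and the genes upstream of acceptors outside the basic set, were chosen after their values were seen. Alternatives changed the thresholds, the point that places a peak, the transcripts used, peaks per gene and the window. Python 3.11.15, numpy 2.4.6, scipy 1.17.1 and matplotlib 3.10.9 were used.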

Additional observations from a re-analysis of the deposited data

How the results depend on the processing

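Of 88 alternative values, 68 kept their direction and side of the threshold, or stayed within the interval or 1.5 times of the main value. With a log2 fold of at least 4 and a −log10 p of at least 10, 69 peaks remained, 53.6% near an acceptor and 47.8% coding, and the odds ratio of near-acceptor against other peaks for a high fold was 0.467 (Fisher's exact test, adjusted p = 0.180). That odds ratio also lost its call with 1 peak per gene (0.578, 0.0801), with acceptors of all transcripts (0.588, 0.0880), with the 5' end (0.662, 0.569), without small RNA peaks (0.657, 0.170), without genes that have no acceptor (0.640, 0.126) and among wide peaks (0.811, 0.892). With the 5' end, 11% were near an acceptor and 24.5% coding, the odds ratio for fold was 0.871 (exact test, adjusted p = 0.555), and that for genes with a G4PID peak turned to 1.23 (0.569). Leaving out midpoints that are intronic in another basic transcript gave 64.2% coding. Among wide peaks, 68.6% were near an acceptor and 64.4% coding, and the odds ratios were 1.02 for fold (exact test, adjusted p = 1) and 1.28 for −log10 p (0.299). Without small RNA peaks the last was 1.32 (0.0593). The cause of each change was not tested. The alternatives on small RNA genes, wide peaks and genes without an acceptor were chosen after seeing the data. No paired analysis was possible because the lists hold no value per library, and for the same reason no library could be left out. The unknown depth limits what a missing peak can show.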
